A study of Mus musculus with 33 samples.

Results

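The collagen and extracellular matrix genes of mouse brown fat were followed through 24 weeks of a high-fat or a normal diet. The set was every gene whose probe symbol has the form of a collagen chain (Col, a number, a, a number), together with 20 named matrix genes, among them fibronectin, small proteoglycans, laminins, nidogens, metalloproteinases and their inhibitors. Of these, 60 had a probe with a gene name on the array, 41 of them collagen chains, and Fbn1 (fibrillin 1) had no named probe. A gene was kept when its probe was detected, with a detection p-value under 0.01, on at least 3 of the 33 arrays. That kept 37 genes, 20 of them collagen chains, out of 9630 genes kept from 19057 with a named probe.

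The extracellular matrix is the protein scaffold around cells. Fibrillar collagens are laid down as procollagen, trimmed outside the cell and assembled into fibres, with proteoglycans such as biglycan and decorin bound to them. Basement membranes are thin sheets of type IV collagen, laminin, nidogen and perlecan, which in fat surround each adipocyte and each capillary. Metalloproteinases cut these proteins, tissue inhibitors of metalloproteinases (TIMPs) hold them in check, and lysyl oxidase cross-links the fibres. Accumulation of collagen, including type VI, is a known feature of obese white fat.

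The tissue was brown fat from between the shoulder blades (interscapular) of C57BL/6J mice, with 3 arrays in each of 11 groups. Mice were given AIN-76 normal diet and sampled at weeks 0, 2, 4, 8, 20 and 24, or a high-fat version of it and sampled at weeks 2, 4, 8, 20 and 24. The high-fat diet held 20% fat and 1% cholesterol and gave 39.2% of its energy as fat. All mice were housed singly at 24 °C with 12 hours of light, and all were labelled as 7 weeks of age. The labels do not say that the 3 samples of a group came from separate animals, so a p-value here speaks only to the spread among these samples, and that spread may be technical. No transgene or drug was named.

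Array medians before normalization ran from 129 to 183 intensity units, and 29.5% to 33.7% of probes were detected on an array. Correlations between arrays of a group ran from 0.977 to 0.996. All 6 brown adipocyte marker genes were detected on all 33 arrays. The first principal component held 35.9% of the variance and set both groups of week 24 apart, with mean scores of 34.4 on normal diet and 46.2 on high-fat diet against -15.1 to 2.68 in the other 9 groups. The diet average is therefore also given without week 24.

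The 37 genes were sorted by role. Fibrillar and interstitial matrix held 18 kept genes of 31 with a probe, basement membrane 12 of 16, and the matrix-modifying class 6 of 6. The collagens of other kinds held 1 of 7, Col23a1, a membrane-spanning collagen. Of the 37 genes, 25 were detected on all 33 arrays. Just inside the detection limit were Col2a1 and Col4a5, each detected on 3 arrays, and just outside it was Col17a1 with 2. The 23 genes not kept were Col5a2, Col6a4, Col6a5, Col6a6, Col9a1, Col9a2, Col9a3, Col11a1, Col19a1, Col22a1, Col24a1, Postn and Thbs1 of the interstitial class, Col4a3, Col4a4, Col4a6 and Col8a2 of the basement membrane class, and Col10a1, Col13a1, Col17a1, Col25a1, Col26a1 and Col28a1 of other kinds. Values below are log2 intensities, and differences are log2 differences with their standard error (SE). The number of arrays, 3 in each group, limits their precision.

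At week 24 most of the fibrillar and interstitial matrix was higher on high-fat than on normal diet. Of 37 genes, 25 passed the test as higher and 1 as lower, beside 12.7% of all genes higher and 7.64% lower (20.4% in either direction). The median difference of the 37 genes was 0.518, and that of all genes was 0.00721. By class, 14 of 18 interstitial genes, 6 of 12 basement membrane genes and 5 of 6 matrix-modifying genes were higher, with median differences of 0.662, 0.416 and 0.43. In whole tissue, fewer cells of a type and less RNA per cell cannot be told apart. The test was limma's moderated test with Benjamini-Hochberg adjustment over all 9630 genes, and genes with an adjusted p under 0.05 passed. Of the 26 calls, 16 remained past the threshold under all 43 alternative settings and left-out arrays: Bgn, Col15a1, Col16a1, Col18a1, Col1a1, Col4a1, Col4a2, Col5a1, Col6a1, Col6a2, Fn1, Hspg2, Mmp14, Nid1, Sparc and Timp1.

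**Figure D1:**
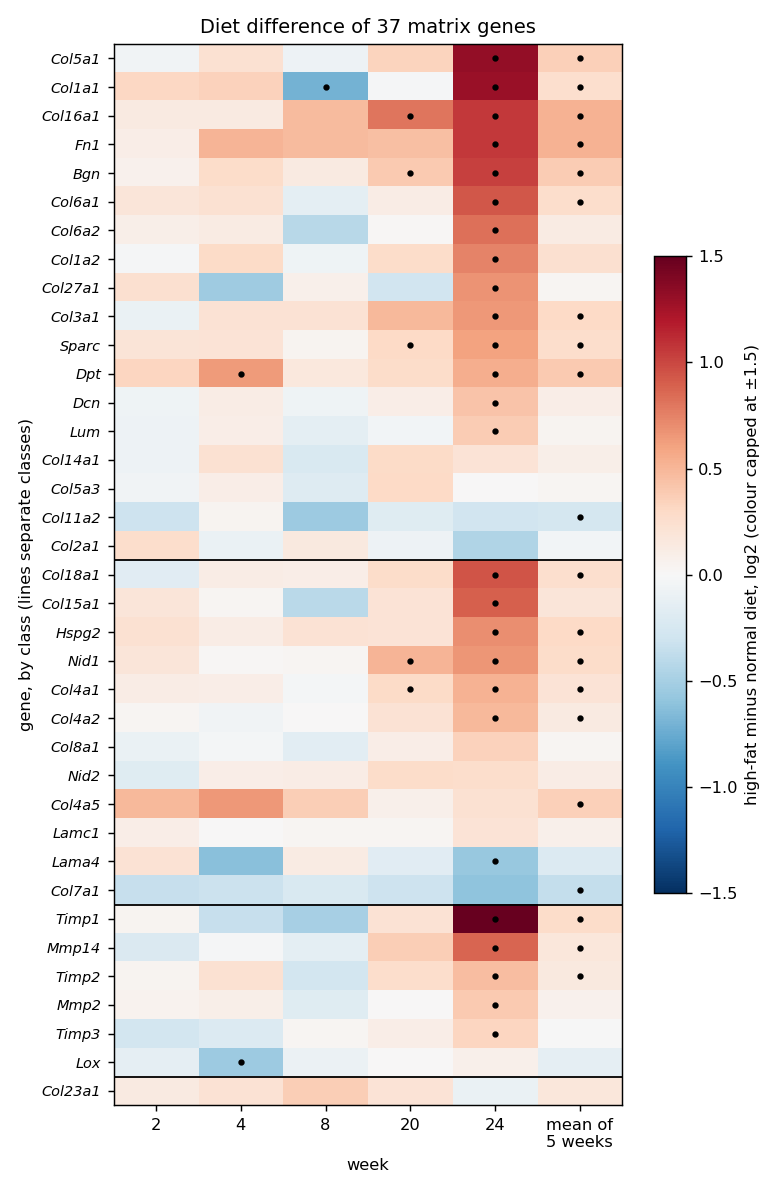
High-fat minus normal diet on the log2 scale (colour) for the 37 genes in rows, at weeks 2 to 24 and averaged over the 5 weeks in columns. Black points mark an adjusted p under 0.05 and lines separate the classes. The week 24 column holds 26 points and the week 2 column holds 0.

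Col5a1 encodes a chain of type V collagen, which starts and regulates the assembly of collagen fibres. At week 24 its 3 normal diet arrays read 9.02, 9.27 and 9.41 and its 3 high-fat arrays 10.70, 10.47 and 10.49, with no overlap. The difference was 1.32 (SE 0.125), a 2.5-fold higher level on high-fat diet (limma adjusted p = 1.24e-08). At week 20 the arrays had read 8.82, 9.21 and 8.98 on normal diet and 9.53, 9.13 and 9.37 on high-fat diet. Those groups overlapped, and the difference of 0.34 did not pass.

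Col1a1, the main chain of type I collagen, did not keep to a single direction. On normal diet it read 9.07, 9.07 and 9.08 at week 0, 8.53, 8.28 and 8.75 at week 2, and 8.15, 7.97 and 8.04 at week 4. It then stayed between 8.01 and 8.36 through week 24, so that its level after week 2 lay below all week 0 arrays. On high-fat diet it read 8.92, 8.52 and 9.04 at week 2, 8.57, 8.22 and 8.39 at week 4, and 7.00, 7.51 and 7.58 at week 8. The week 8 arrays all lay below the normal diet arrays of 8.01, 8.11 and 8.08. By week 20 the 2 diets overlapped, with 8.02, 8.30 and 8.20 on high-fat diet and 8.06, 8.18 and 8.31 on normal diet. At week 24 the high-fat arrays read 9.66, 9.33 and 9.52 against 8.36, 8.20 and 8.05. The difference was -0.71 at week 8 (SE 0.145, limma adjusted p = 0.0125) and 1.30 at week 24 (SE 0.145, limma adjusted p = 1.78e-07). Without the first high-fat array of week 8 the week 8 difference fell to -0.522 and did not pass, with an adjusted p of 0.0607.

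Its partner chain Col1a2 and the type III collagen chain Col3a1 were dim at week 24. Col1a2 read 5.46, 5.83 and 5.75 on normal diet, where no array detected it, and 6.74, 6.22 and 6.29 on high-fat diet, where all 3 did. A level below detection gives only a bound, taken against the lowest signal called detected on each array, and Col1a2 was at least 1.29-fold higher on high-fat diet (limma adjusted p = 0.0156). Col3a1 read 5.16, 6.13 and 5.25 against 6.36, 5.92 and 6.23, and the groups overlapped. It was detected on 2 of 3 high-fat arrays and on no normal diet array, and was at least 1.08-fold higher (limma adjusted p = 0.0242). The Col1a2 call was lost without the first normal diet array of week 24 (limma adjusted p = 0.09) or the first high-fat array (limma adjusted p = 0.101). The Col3a1 call was lost without the first or last normal diet array (limma adjusted p = 0.166 and 0.101), or without the first or last high-fat array (limma adjusted p = 0.104 and 0.0715).

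**Figure D2:**
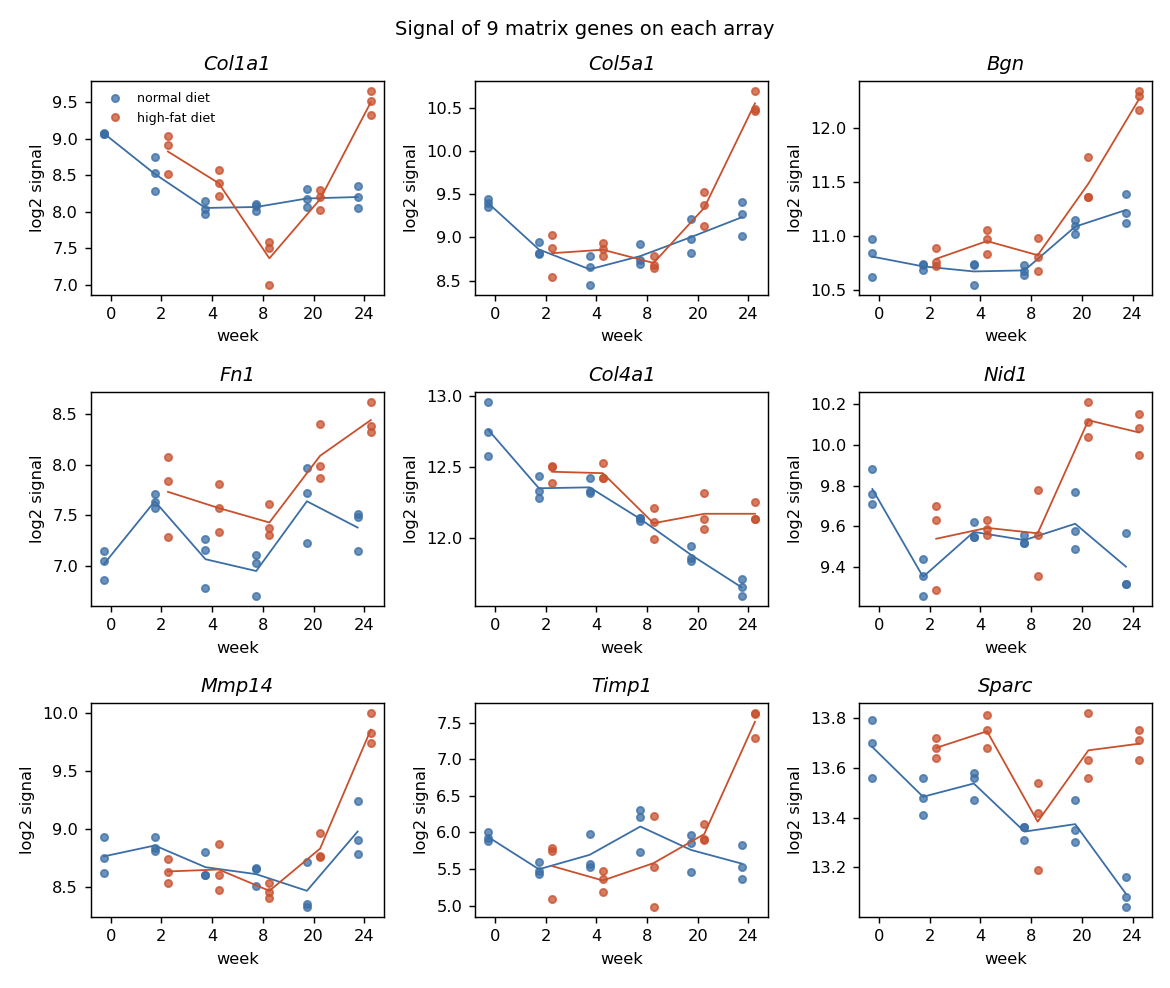
Log2 signal of 9 matrix genes on each array (points) by week on the diet, with lines through group means of 3 arrays; weeks are evenly spaced and y axes differ. At week 24 the high-fat arrays of all 9 genes lie above the normal diet arrays, and Col1a1 on high-fat diet is lowest at week 8.

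Col16a1 is a collagen that sits on the surface of fibres, and its diet difference was positive at all 5 weeks. Its high-fat arrays read 7.28, 7.30 and 7.00 at week 8, 7.50, 7.00 and 7.12 at week 20, and 7.66, 7.57 and 7.40 at week 24. Its normal diet arrays read 6.95, 6.53 and 6.68, then 6.38, 6.47 and 6.38, then 6.43, 6.43 and 6.59. The diets did not overlap at any of these 3 weeks. The difference passed at week 20 (0.80, SE 0.132, limma adjusted p = 0.000705) and at week 24 (1.06, SE 0.132, limma adjusted p = 1.08e-06), where it was 2.09-fold.

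Biglycan (Bgn), a small proteoglycan that binds collagen and is released in injured tissue, was apart between diets at weeks 4, 20 and 24 and overlapped at weeks 2 and 8. At week 4 it read 10.73, 10.55 and 10.74 on normal diet and 10.83, 10.97 and 11.06 on high-fat diet, and the difference of 0.28 did not pass (limma adjusted p = 0.224). At week 20 it read 11.02, 11.15 and 11.09 on normal diet and 11.73, 11.36 and 11.36 on high-fat diet, and at week 24 11.12, 11.21 and 11.39 against 12.34, 12.29 and 12.16. The differences were 0.39 at week 20 (SE 0.105, limma adjusted p = 0.0286) and 1.03 at week 24 (SE 0.105, limma adjusted p = 4.28e-08). Without the first high-fat array of week 20, or without the first or the last normal diet array, the week 20 difference was 0.269, 0.36 or 0.397, with an adjusted p of 0.158, 0.12 or 0.0706.

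Fibronectin (Fn1), which links cells to collagen through integrins, read 7.48, 7.51 and 7.14 on normal diet at week 24 and 8.62, 8.38 and 8.32 on high-fat diet. The groups did not overlap and the difference was 1.06 (SE 0.193, limma adjusted p = 0.000208), or 2.08-fold. The type VI collagen chains Col6a1 and Col6a2, which form beaded filaments near the cell surface, were higher by 0.93 and 0.82. The other interstitial genes that were higher at week 24 were Col27a1 (0.67), Sparc (0.60), Dpt (0.54), Dcn (0.42) and Lum (0.39). Sparc encodes a collagen-binding glycoprotein, dermatopontin (Dpt) a small protein that speeds fibre assembly, and decorin (Dcn) and lumican (Lum) proteoglycans that set fibre diameter. Col14a1 (0.21), Col5a3 (0.00), Col11a2 (-0.29) and Col2a1 (-0.45) did not pass, and none of these 4 was detected on all 33 arrays.

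Among basement membrane genes at week 24, Col18a1, the source of endostatin, read 8.73, 8.69 and 9.10 on normal diet and 9.75, 9.76 and 9.82 on high-fat diet, a difference of 0.94 (SE 0.127, limma adjusted p = 3.79e-06). Col15a1, its relative in the outer basement membrane, was higher by 0.90 and perlecan (Hspg2), the large heparan sulphate proteoglycan, by 0.70. Perlecan read 11.10, 11.17 and 11.26 against 11.85, 11.91 and 11.87, with no overlap. Nidogen 1 (Nid1), which links laminin to type IV collagen, was higher by 0.66 (SE 0.106). Its arrays read 9.32, 9.57 and 9.32 on normal diet and 10.08, 10.15 and 9.95 on high-fat diet. At week 20 they had read 9.58, 9.77 and 9.49 against 10.11, 10.21 and 10.04, also apart, with a difference of 0.51 (limma adjusted p = 0.00608). By the other Nid1 probe, detected on all 33 arrays, the difference was 0.21 at week 20 and 0.22 averaged over the weeks. Neither passed.

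The laminin chain Lama4, found in vessel walls and around adipocytes, was the only member called lower at week 24. It read 6.20, 6.00 and 5.83 on normal diet, where 1 array detected it, and 5.38, 5.38 and 5.57 on high-fat diet, where none did. Both groups were largely below detection, so the size of the Lama4 difference is not usable (limma adjusted p = 0.0496). This call was lost in 24 of the 43 alternatives. Lamc1 (0.21), Nid2 (0.27), Col4a5 (0.22), Col8a1 (0.35) and Col7a1 (-0.61) did not pass. Col7a1, the chain of anchoring fibrils, read 6.74, 6.59 and 6.28 on normal diet and 5.98, 6.27 and 5.55 on high-fat diet, which did not overlap (adjusted p = 0.0573). By non-overlap of 3 against 3 arrays at week 24, 24 of the 37 genes were higher on high-fat diet and 3 lower (Col2a1, Col7a1 and Lama4), beside 20.6% and 17% of all genes.

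Of the matrix-modifying genes, Timp1 stood out at week 24. It encodes an inhibitor of metalloproteinases that is secreted and readily induced. On the 30 arrays outside the high-fat group of week 24 it read between 4.98 and 6.30. At week 24 it read 5.53, 5.83 and 5.36 on normal diet, where no array detected it, and 7.61, 7.63 and 7.29 on high-fat diet, where all 3 did. Timp1 was at least 2.74-fold higher on high-fat diet (limma adjusted p = 2.88e-07).

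Mmp14, a membrane-bound metalloproteinase that cuts collagen and activates the gelatinase Mmp2, read 8.91, 8.79 and 9.24 on normal diet at week 24 and 10, 9.74 and 9.83 on high-fat diet. The groups did not overlap and the difference was 0.88 (SE 0.12, limma adjusted p = 4.68e-06), or 1.84-fold. Mmp2 itself read 9.64, 9.63 and 9.60 against 10.16, 9.87 and 10.02, a difference of 0.39 (limma adjusted p = 0.0172). Timp2 read 9.70, 10.05 and 9.94 against 10.39, 10.29 and 10.41, a difference of 0.47 (limma adjusted p = 0.00655). Timp3, which binds to the matrix, was higher by 0.32 (limma adjusted p = 0.038). Lysyl oxidase (Lox) overlapped between diets at week 24, with 9.44, 9.68 and 9.19 against 9.40, 9.49 and 9.65.

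The upstream sequences of Timp1, Col5a1 and Col16a1 are shown. Of the genes called higher at week 24 that had a promoter entry, these 3 had the largest differences. Col1a1, with a larger difference than Col16a1, had no entry. Each is the 250 bases before the annotated start, 5′ to 3′ on the gene's strand, from RefSeq on GRCm38.p6. Capitals mark matches on either strand to 5 motifs: the GC box GGGCGG, the CCAAT box, TATAAA, the AP-1 site TGANTCA and the Smad core CAGAC. No motif overlapped another in these 3 sequences.
Timp1, chrX:20869916-20870165, plus strand: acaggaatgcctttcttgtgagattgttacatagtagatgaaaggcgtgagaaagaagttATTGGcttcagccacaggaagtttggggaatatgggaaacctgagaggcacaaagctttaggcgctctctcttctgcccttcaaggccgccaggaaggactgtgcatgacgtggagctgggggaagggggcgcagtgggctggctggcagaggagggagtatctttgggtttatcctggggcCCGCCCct
Col5a1, chr2:27886175-27886424, plus strand: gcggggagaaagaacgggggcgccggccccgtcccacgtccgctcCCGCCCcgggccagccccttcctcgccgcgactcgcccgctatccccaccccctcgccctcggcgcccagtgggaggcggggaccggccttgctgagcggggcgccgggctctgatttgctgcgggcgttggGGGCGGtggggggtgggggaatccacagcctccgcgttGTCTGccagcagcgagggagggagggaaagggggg
Col16a1, chr4:130047590-130047839, plus strand: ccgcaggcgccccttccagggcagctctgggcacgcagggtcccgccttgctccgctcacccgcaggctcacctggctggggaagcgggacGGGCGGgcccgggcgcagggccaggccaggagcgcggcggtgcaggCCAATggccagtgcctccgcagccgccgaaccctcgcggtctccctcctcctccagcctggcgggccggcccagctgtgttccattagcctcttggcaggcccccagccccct
Timp1 held 1 GC box and 1 CCAAT box, Col5a1 held 2 GC boxes and 1 Smad core, and Col16a1 held 1 GC box and 1 CCAAT box, none held TATAAA or the AP-1 letters, and the bases G and C made up 54.4%, 76.4% and 75.6%. Of the 37 genes 26 had an entry in the promoter table. The GC box was in 19 of these 26 and in 32.7% of all 27025 genes, CCAAT in 11 and 34.2%, TATAAA in 2 and 12.9%, TGANTCA in 1 and 6.87%, and CAGAC in 9 and 42.4%. The 27025 are all genes with an entry, detected in this tissue or not, while the 26 had passed the detection filter. The shares are therefore not a like comparison, and the shares among the 9630 kept genes were not counted. A match describes the letters in this window and is not evidence of binding.

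The earlier weeks showed few differences between diets. At week 2, 0 of the 37 genes passed by limma, beside 1.9% of all genes (1.13% higher and 0.768% lower). Of the 37, 6 had an unadjusted p under 0.05, 5 of them higher. The share of all genes under that unadjusted threshold was not counted, so these 6 cannot be set against it. At week 4, 1 gene passed as higher and 1 as lower, beside 0.727% and 0.467% (1.19% in either direction). Dermatopontin (Dpt) was higher, with 8.44, 8.19 and 8.29 on normal diet and 8.92, 8.86 and 9.06 on high-fat diet (0.64, SE 0.146, limma adjusted p = 0.0216). Lox was lower, with 9.73, 9.65 and 9.81 against 9.35, 9.12 and 9.08 (-0.55, SE 0.139, limma adjusted p = 0.0483). Neither gene's groups overlapped. By non-overlap of the 3 arrays of each diet, 8 of the 37 genes were higher and 2 lower at week 4, beside 12% and 12.9% of all genes, and at week 2 it was 2 each way, Hspg2 and Sparc higher and Mmp14 and Timp3 lower, beside 12.2% and 11.5%. Among the 6 arrays of week 4, the Dpt call was lost without 5 of them, with adjusted p from 0.0542 to 0.119, and remained without the first normal diet array. The Lox call was lost in 28 of 43 alternatives.

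At week 8, Col1a1 was the 1 gene that passed, as lower, beside 1.17% of all genes lower and 2.1% in either direction. At week 20, 5 genes passed, all as higher, beside 3.04% of all genes higher and 1.62% lower (4.66% in either direction). They were Col16a1, Nid1 (by its brightest probe alone), Bgn, Sparc and Col4a1. By non-overlap of arrays 5 genes were higher and 3 lower at week 8, beside 7.77% and 7.56% of all genes, and 9 were higher and 0 lower at week 20, beside 14.2% and 10.2%. Sparc read 13.30, 13.35 and 13.47 on normal diet and 13.82, 13.56 and 13.63 on high-fat diet at week 20, and 13.16, 13.04 and 13.08 against 13.71, 13.75 and 13.63 at week 24. It did not overlap at either week, with differences of 0.30 (limma adjusted p = 0.0412) and 0.60 (limma adjusted p = 7.03e-06). None of the calls at weeks 4, 8 and 20 remained past the threshold under every alternative, and at week 20 the count was 2 without the first or the last normal diet array of that week, and 3 without its first or its last high-fat array or without the first high-fat array of week 24. At week 8 it was 3 without the last high-fat array of that week, and 2 without the first high-fat array of week 2 or the first or second of week 20.

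Averaged over the 5 weeks, 18 of 37 genes were higher on high-fat diet and 2 were lower, beside 15.4% and 11.7% of all genes (27.1% in either direction). The median difference was 0.167, against 0.00239 over all genes. The 8 genes with the smallest adjusted p were Col16a1 (0.52), Bgn (0.38), Hspg2 (0.29), Sparc (0.27), Col5a1 (0.35), Fn1 (0.52), Dpt (0.39) and Nid1 (0.28), with limma adjusted p from 2.87e-07 to 7.63e-05. Also higher were Col18a1 (0.25), Col4a1 (0.20), Col6a1 (0.26), Col1a1 (0.25), Col4a2 (0.14), Col4a5, Col3a1 (0.30), Mmp14 (0.17) and Timp2 (0.15), and Timp1, whose size is not usable because 8 of the 11 groups had no array that detected it. The 2 lower genes were Col7a1 (-0.36, limma adjusted p = 0.00855) and Col11a2 (-0.26, limma adjusted p = 0.0235), a chain of the cartilage-type collagen XI. Col4a5 was detected on only 3 arrays, so its size is of little use.

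Without week 24, 8 genes passed for the average of the other 4 weeks, all as higher and all of them among the 18, and 0 passed as lower, beside 8.39% of all genes higher and 6.87% lower (15.3% in either direction). They were Col16a1 (0.386), Dpt (0.349), Bgn (0.218), Sparc (0.184), Hspg2 (0.192), Fn1 (0.383), Nid1 (0.185) and Col4a5, whose size is of little use. Col1a1 (-0.0171) and Mmp14 (-0.00541) then had differences below 0 that did not pass, and Timp1 did not pass. When arrays were scaled by their median in place of quantiles, 14 of the 37 genes were higher and 4 lower in the average of the 5 weeks. Beside them 3102 of all 9630 genes were called in either direction. Of all genes called, 25.5% were higher against 57% by quantiles. A difference of a single sign at all 5 weeks was seen in 9 genes on the high side (Bgn, Col16a1, Col4a5, Dpt, Fn1, Hspg2, Lamc1, Nid1 and Sparc) and 1 on the low side (Col7a1), beside 11.5% and 11.1% of all genes.

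The difference at week 24 was also tested against the mean difference of the other 4 weeks. It was larger in 19 of 37 genes, beside 6.19% of all genes, and smaller in 0, beside 2.64% (8.83% of all genes in either direction). At an unadjusted p under 0.05, 1 gene was smaller, and the share of all genes at that threshold was not counted. The median of this contrast was 0.42, against 0.00879 over all genes. Col1a1 (1.32, SE 0.162, limma adjusted p = 2.10e-06), Col5a1 (1.21, SE 0.14, limma adjusted p = 7.81e-07) and Bgn (0.81, SE 0.117, limma adjusted p = 2.52e-05) were among them. Timp1 also passed (limma adjusted p = 1.30e-06), but no array detected it in 8 of the 11 groups, so its size is not usable. An F test of any diet by week interaction passed for 16 genes, beside 6.41% of all genes, with the smallest adjusted p in Col1a1 (4.13e-06), Col5a1 (1.65e-05), Timp1 (3.14e-05) and Mmp14 (0.000293), by limma. That count was 9 without the first high-fat array of week 24, 10 without the second, and 0 when both groups of week 24 were left out. Hspg2, Sparc, Nid1 and Col16a1, which were higher across the weeks, also had a larger difference at week 24. In Sparc and Nid1 the larger difference passed by the brightest probe alone.

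Over time on normal diet 7 of the 12 basement membrane genes passed as lower at week 20 and 9 of 12 at week 24. Of all genes, 18.4% and 24.2% were lower at these weeks. The type IV collagen chains Col4a1 and Col4a2, which twist together into the main network of the basement membrane, were lower at both. Col4a1 read 12.96, 12.58 and 12.75 at week 0, 12.44, 12.28 and 12.33 at week 2, 12.42, 12.32 and 12.33 at week 4, 12.14, 12.14 and 12.12 at week 8, 11.84, 11.94 and 11.86 at week 20, and 11.59, 11.71 and 11.65 at week 24. Every array from week 8 on lay below every array of week 4 and before. Col4a2 read 12.46, 12.37 and 12.40 at week 0, 11.86, 11.92 and 11.85 at week 20, and 11.62, 11.75 and 11.53 at week 24. From week 0 to week 24 they fell by 1.11 (SE 0.0861, limma adjusted p = 1.03e-10) and by 0.78 (SE 0.083, limma adjusted p = 2.97e-08) on the log2 scale. On high-fat diet Col4a1 read 12.06, 12.13 and 12.32 at week 20 and 12.13, 12.25 and 12.13 at week 24, and Col4a2 12.17, 12.19 and 12.00 at week 24. The diet differences at week 24 were 0.52 (limma adjusted p = 6.67e-05) and 0.49 (limma adjusted p = 9.37e-05). The Col4a1 difference at week 20, 0.29 (limma adjusted p = 0.0474), was lost in 28 of 43 alternatives.

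Col4a1 and Col4a2 lie head to head and are transcribed away from each other. On GRCm38.p6 in RefSeq, Col4a1 starts at 11312826 on the minus strand of chromosome 8 and Col4a2 at 11312805 on the plus strand. By these starts the 2 transcripts overlap by 22 bases, which lie within both transcripts and not upstream of either start. They are shown on the plus strand because both chains were lower over time and higher with the high-fat diet at week 24, and capitals mark the GC box GGGCGG, the 1 match to the motifs searched.
Col4a1 and Col4a2, chr8:11312805-11312826: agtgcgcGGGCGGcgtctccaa

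**Figure D3:**
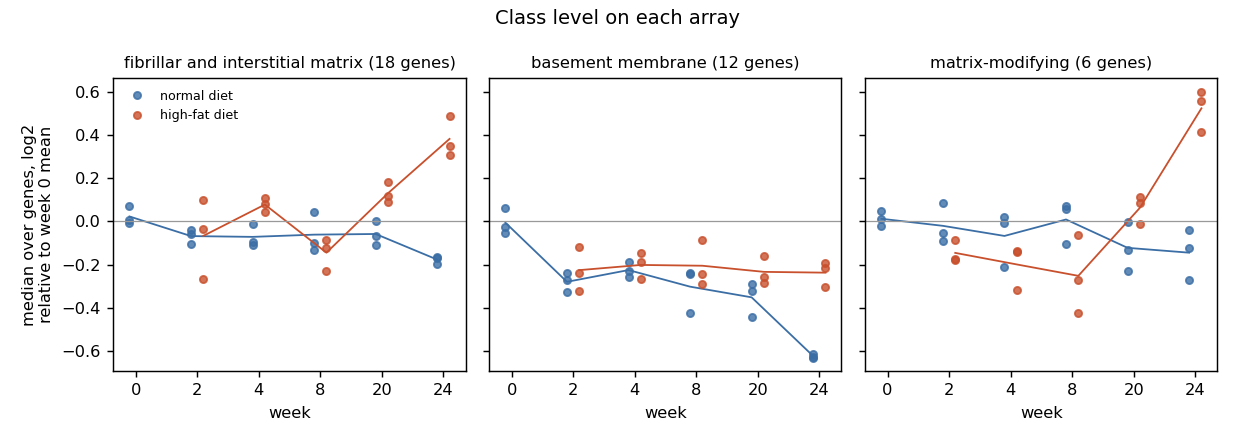
Median over the genes of a class of the log2 signal on each array (points) relative to the mean of the week 0 arrays, by week on the diet, with lines through group means. The basement membrane class lies below 0 on both diets from week 2, and the interstitial and matrix-modifying classes lie above 0 on high-fat diet at week 24.

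From week 0 to week 20 on normal diet 6 of 37 genes rose and 13 fell, beside 14.8% and 18.4% of all genes (33.2% in either direction). From week 0 to week 24, 2 rose and 17 fell, beside 24.1% and 24.2% (48.3% in either direction). Both groups of week 24 stood apart on the first principal component. In the changes to week 24, time and whatever set those arrays apart cannot be told apart. The median changes of the 37 genes were -0.175 and -0.34, and those of all genes -0.0268 and 0.0203. By class at week 24, 9 of 12 basement membrane genes fell, with a median change of -0.553. Of the 18 interstitial genes 7 fell and 1 rose (median -0.153), and of the 6 matrix-modifying genes 1 fell and 1 rose (median -0.134). With skeletal muscle markers as a covariate the week 20 count was 11 and the week 24 count 16. Without the first array of week 0 the week 20 count was 11.

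The largest falls to week 24 were in Col3a1 and Col1a2. Col3a1 read 7.72, 7.40 and 7.54 at week 0, between 6.78 and 7.62 at weeks 2 to 20, and 5.16, 6.13 and 5.25 at week 24. Col1a2 read 7.62, 7.39 and 7.18 at week 0, between 6.55 and 7.47 at weeks 2 to 20, and 5.46, 5.83 and 5.75 at week 24. Neither gene was detected on any normal diet array of week 24, and both were on all 3 of week 0. They were at least 2.83-fold (limma adjusted p = 1.11e-08) and at least 2.53-fold (limma adjusted p = 4.24e-07) lower at week 24. Both were also dim on high-fat diet at week 24, and by group means week 24 was the lowest week for these chains on either diet.

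Lamc1, the gamma chain common to most laminins, read 10.23, 10.12 and 10.11 at week 0 and 9.29, 9.06 and 8.86 at week 24, and fell by 1.09 (SE 0.133, limma adjusted p = 2.73e-07). On high-fat diet at week 24 it read 9.32, 9.25 and 9.26, and the 2 diets overlapped. Sparc fell by 0.59, Timp3 by 0.78, Col1a1 by 0.87, Col7a1 by 0.93, Nid1 by 0.38, Nid2 by 0.53, Hspg2 by 0.30, Col6a1 by 0.44, Dcn by 0.35 and Lama4 by 0.58. Col6a2 fell by 0.44, but by the mean of its 2 probes the change was 0.0171. The other probes of Col6a1 (-0.14) and Timp3 (-0.35 and -0.46), and 1 probe of Dcn (-0.23), did not pass. Col4a5 was also called lower, but only 1 array of week 0 and none of week 24 detected it, so its size is not usable. Bgn rose by 0.43 (limma adjusted p = 0.00145), from 10.97, 10.62 and 10.84, and Timp2 rose by 0.41 (limma adjusted p = 0.0069), from 9.51, 9.41 and 9.54.

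At week 20 the largest rises since week 0 were in Col27a1 (1.00), Dpt (0.88), Fn1 (0.62) and Lum (0.47). Col27a1, a fibrillar collagen of cartilage and other tissues, read 8.55, 7.88 and 7.99 at week 0, between 8.78 and 9.61 from week 2 to week 20, and 7.96, 7.62 and 7.82 at week 24. Its rise was not kept at week 24, where the change from week 0 was -0.34. By the other kept probe of Col27a1, detected on 3 arrays, the change to week 20 was 0.12 and did not pass. Dpt read 8.28, 8.04 and 8.09 at week 0, 8.83, 9.09 and 9.12 at week 20, and 7.93, 8.62 and 8.13 at week 24. Lum read 8.58, 8.79 and 8.76 at week 0 and 8.94, 9.38 and 9.22 at week 20, and Fn1 6.86, 7.05 and 7.14 at week 0 and 7.22, 7.97 and 7.72 at week 20. Lox (0.41) and Bgn (0.28) also rose. Scaled by array medians, 2 of the 37 genes rose and 19 fell, beside 3657 of all 9630 genes called in either direction. Of all genes called 19.2% rose against 44.5% by quantiles.

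The largest falls to week 20 were in Col7a1 (-0.96), Col1a1 (-0.89) and Col4a1 (-0.88). Col7a1 read 7.88, 7.24 and 7.28 at week 0 and 6.43, 6.51 and 6.59 at week 20. Col4a5 read 5.71, 6.64 and 6.00 at week 0 and 5.59, 5.28 and 5.28 at week 20, largely below detection, and it was called lower with no usable size. Col23a1 was called lower at week 20 under the same limit. The others that fell were Col3a1, Col5a1, Sparc, Col4a2, Col15a1, Hspg2, Lamc1 and Timp3, by 0.24 to 0.64 on the log2 scale. For Sparc, Timp3 and Hspg2 that holds for the brightest probe alone (-0.31, -0.48 and -0.24). The other probes of Sparc changed by -0.08 and 0.03, those of Timp3 by -0.33 and 0.14, and that of Hspg2 by -0.16, and none of these passed. Both probes of Lamc1 passed. Dcn changed by -0.03 by its brightest probe, but rose by 0.46 and 0.94 by its others, which passed. The probe with 0.94 was detected on 7 arrays. An F test over the 6 normal diet weeks passed for 26 of 37 genes, beside 66.5% of all genes, with the smallest limma adjusted p in Col4a1 (7.99e-10), Col4a2 (2.26e-08), Col3a1 (6.69e-08) and Col27a1 (5.98e-07). It passed for 17 without week 24.

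Set against week 0, the class medians differed at week 24. On high-fat diet the median interstitial gene was at 0.41, with 14 of 18 above their week 0 mean, and the median matrix-modifying gene was at 0.51, with 5 of 6 above. The median basement membrane gene was at -0.27, with 5 of 12 above. On normal diet the 3 medians were -0.15, -0.13 and -0.55. The basement membrane median on high-fat diet ran from -0.21 to -0.27 at the 5 weeks, while on normal diet it ran from -0.25 to -0.28 at weeks 2 to 8 and then -0.37 and -0.55. These are descriptions of group means, with no test between classes. Change over time and whatever set the week 24 arrays apart from the other groups cannot be told apart.

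**Figure D4:**
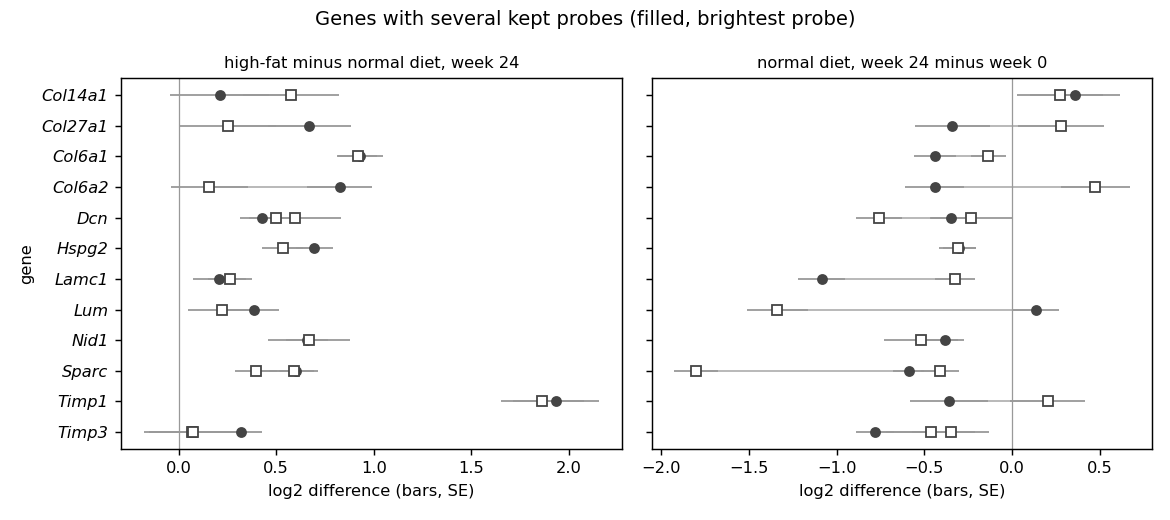
Log2 differences (points, with SE bars) by each probe of the 12 genes with several kept probes, for high-fat minus normal diet at week 24 (left) and week 24 minus week 0 on normal diet (right). Filled points are the brightest probe. All probes lie above 0 on the left, and the probes of 4 genes lie on both sides of 0 on the right; Timp1 was not detected on normal diet at week 0 or week 24, so its points give no usable size.

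Among the 37 genes 12 had more than 1 kept probe. In the diet difference at week 24 the probes of all 12 had 1 sign, beside 6 of 12 at week 2, 9 of 12 at week 4, 9 of 12 at week 8 and 10 of 12 at week 20. Examples are Col6a1 with 0.93 and 0.92, Nid1 with 0.66 and 0.67, and Sparc with 0.60, 0.59 and 0.40. A dimmer probe of Timp1, Timp3 and Col27a1 was detected on only 3 arrays, of Col6a2 on 5, of Col14a1 on 6 and of Dcn on 7. The sign of such probes says little, and the share of 1 sign over all genes was not counted. For Col6a2 the values were 0.82 and 0.16, and for Timp3 0.32, 0.07 and 0.07, and their dimmer probes did not pass. The other probes of Lum (0.22) and Col27a1 (0.25), and 1 probe of Dcn (0.60), did not pass either. In the change from week 0 to week 24 on normal diet 8 of 12 genes had 1 sign, and 7 of 12 to week 20. Lum changed by 0.14 by its brightest probe and by -1.34 by the other, Sparc by -0.59, -1.80 and -0.41, and Lamc1 by -1.09 and -0.33. The falls of Sparc and Lamc1 passed by every probe and differed in size.

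Markers of other cell types moved beside the matrix genes, at a week when 12.7% of all genes were higher on high-fat diet. At week 24, 8 of 8 macrophage markers were higher on high-fat diet (median difference 1.24), and their summed signal ran from 3490 to 4350 on normal diet and from 9890 to 10500 on high-fat diet. Of 11 endothelial markers 7 were higher, with sums of 9870 to 11200 against 14300 to 15400. Of 6 fibroblast and adipose progenitor markers 2 were higher, with sums of 1420 to 1740 against 1970 to 2240, and of 5 pericyte and smooth muscle markers 3 were higher, with sums of 3880 to 4480 against 4910 to 5530. No marker of mesothelium (4 with a named probe) or of cartilage and bone (5 with one) was detected on enough arrays to be kept. The part of these cells in the matrix differences was not tested.

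Skeletal muscle, which borders this depot, gave sums of 10700 to 73900 on the high-fat arrays of week 24 and 25100 to 29600 on normal diet, with 0 of 10 markers called between diets. With the mean of the muscle markers as a covariate, 25 matrix genes were higher and 1 lower at week 24, and 25 of the 26 were shared with the fit without it, Lama4 being the call lost. On normal diet 10 of 10 muscle markers rose from week 0 to week 20 and 8 of 10 to week 24, beside 14.8% and 24.1% of all genes, from sums of 6190 to 7780 at week 0. Over the same span 6 of 11 endothelial markers fell to week 24, beside 24.2% of all genes, with sums of 14200 to 20400 at week 0, beside the falls of the basement membrane genes. Their part in those falls was not tested. The 6 brown adipocyte markers summed to 129000 to 142000 and 137000 to 143000 on normal and high-fat diet at week 24. Of these 6, 0 were called higher and 1 lower on high-fat diet, beside 12.7% and 7.64% of all genes. From week 0 to week 24 on normal diet 5 rose and 1 fell, beside 24.1% and 24.2%.

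**Figure D5:**
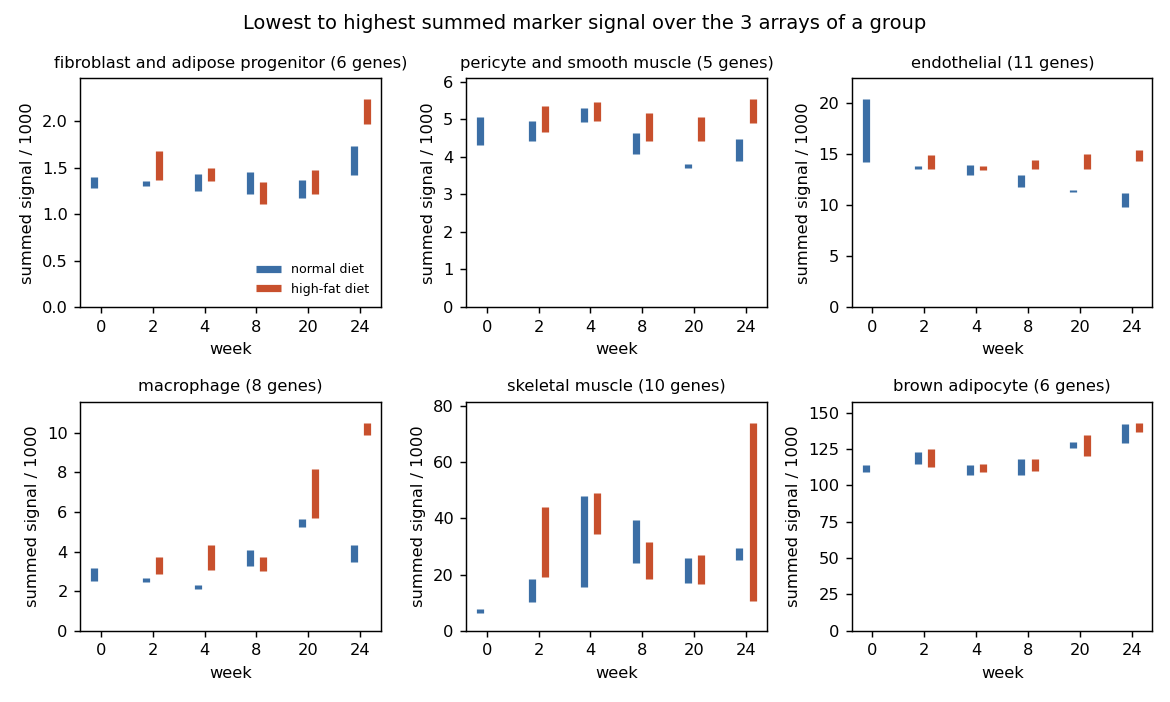
Lowest to highest summed signal (bars, on axes that differ between cell types) of the markers of 6 cell types over the 3 arrays of each group, by week on the diet. Macrophage sums on high-fat diet at week 24 lie above all other groups, endothelial sums on normal diet fall with time, and skeletal muscle sums vary most between arrays.

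Other genes that make, bind and cut the matrix were counted for the diet average, in which 15.4% of all genes were higher and 11.7% lower. None of the genes in the first 4 lists below was called lower. Of 17 kept genes for collagen processing and cross-linking 6 were higher, led by Pcolce (0.75), which speeds the trimming of procollagen, with Tgm2 (0.21), a cross-linking transglutaminase, and Bmp1 (0.25), the procollagen C-proteinase. At week 24 Pcolce was higher by 1.43. Of 20 other matrix proteins 8 were higher, among them Prelp (0.50), Lamb3 (0.68) and Agrn (0.23). Of 16 matrix receptors 5 were higher, among them the hyaluronan receptor Cd44 (0.68), the syndecan Sdc3 (0.34) and the integrin chain Itga9 (0.33). Cd44 is also carried by macrophages, and its difference at week 24 was 2.24.

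Of 14 other proteases and inhibitors 7 were higher, among them Mmp12 (0.53), the macrophage elastase, Adamts9 (0.35) and the plasminogen activator Plau (0.32). Of 13 genes of TGF-beta signalling, a main inducer of collagen genes, 4 were higher and 1 was lower. The lower gene was the receptor Tgfbr2 (-0.21, and -0.53 at week 24), while the co-receptor Eng (0.26) and the induced matrix protein Tgfbi (0.20) were higher. These 15 genes were the 3 with the smallest adjusted p in each list, and the median diet averages of the 5 lists were 0.1, 0.183, 0.0811, 0.178 and 0.105 in the order given.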

How the data were processed

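The authors deposited probe intensities and detection p-values of 33 mouse bead arrays, which the submitters' processing notes credit to BeadStudio 3.1.3, not normalized between arrays. The authors also deposited log2 values with 1 shared distribution, used here only as an alternative. Intensities of 45281 probes were background corrected by limma 3.58.1 (R 4.3.3) with the normexp model, which took its control beads' level from the detection p-values, with an offset of 16, then quantile normalized and taken to log2. Probes with a detection p under 0.01 on 3 or more arrays were kept, and the brightest probe stood for a gene. Symbols came from the platform annotation, updated through Entrez identifiers; 34885 probes had 1 symbol, 18 several and 10378 none.

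A model with 1 coefficient per group (22 residual and 4.13 prior degrees of freedom) was fitted over 9630 genes with Benjamini-Hochberg adjustment over all of them. The computation was tested on simulated data. The members and lists were chosen with earlier results of these data known. Genes shown on every array were 13 on a list (Col6a3 had no named probe), the 8 with the smallest adjusted p for the diet average, and for each other contrast the 1 to 5 largest each way or, for the F tests and week 24 against other weeks, the 4 with the smallest p; every kept member is named. Alternatives covered background correction, scaling, the deposited log2 values, the detection filter, the probe rule, a replicate block, array weights, left-out arrays and groups, single-week fits and a muscle covariate. Replicate numbers were checked for pairing: correlations of same-numbered arrays between diets ran from -0.11 to 0.133, so they were not taken to pair samples. Promoters were read from RefSeq on GRCm38.p6; where a gene had several entries the lowest coordinate was used.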

Additional observations from a re-analysis of the deposited data

Results flagged for a closer look

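In 19 genes the diet difference at week 24 differed, by a test, from the mean difference of weeks 2, 4, 8 and 20. In all 19 it was larger at week 24, beside 6.19% of all genes larger and 2.64% smaller. Among interstitial genes the log2 excess was 1.32 in Col1a1, 1.21 in Col5a1, 0.87 in Col6a2, 0.84 in Col6a1, 0.81 in Bgn, 0.79 in Col27a1, 0.68 in Col16a1, 0.67 in Fn1, 0.42 in Sparc and 0.41 in Dcn. Among basement membrane genes it was 0.89 in Col15a1, 0.86 in Col18a1, 0.50 in Hspg2, 0.47 in Nid1, 0.44 in Col4a2 and 0.40 in Col4a1. Among matrix-modifying genes it was 0.88 in Mmp14 and 0.41 in Timp3. These values are of the brightest probe of each gene. Other kept probes did not pass in Col6a2 (0.10), Col27a1 (0.49), Nid1 (0.56), Sparc (0.34 and 0.20), Dcn (0.38 and 0.53) and Timp3 (0.08 and 0.11). The other probes of Col6a1 and Hspg2, detected on all 33 arrays, passed. That of Timp1 also passed, but it was detected on only 3 arrays, so its pass adds little. The fitted value in Timp1 was 2.08, but no array detected it in 8 of the 11 groups, so this is not a usable size. The limma adjusted p ran from 7.81e-07 in Col5a1 to 0.0489 in Fn1. Under all 42 alternatives 13 of the 19 remained past the threshold, and the Fn1 call was lost in 27 of them. The week 24 arrays of both diets also stood apart from the other groups on the first principal component, and what set them apart was not tested.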

How the results depend on the processing

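Of the single-gene results under the 11 alternative settings and the 33 left-out arrays, 5053 kept their direction and side of the threshold, 337 lost a call, 23 gained it, 26 uncalled values changed sign and 4 called values reversed: Col1a1 (-0.0171), Mmp14 (-0.00541) and Timp1 (-0.146) in the diet average without week 24, and Col6a2 (0.0171) from week 0 to week 24 by the mean of its probes. Without week 24 the diet average called 8 genes, the normal diet weeks 17 and the interaction 0, with fewer samples. With median scaling the counts were 0 at week 4, 16 at week 8 (all lower) and 1 at week 20. Of all 9630 genes, 62, 3725 and 373 were called at these weeks in either direction, so the week 8 count came with a shift of the whole array. That scaling moved the median of all genes by -0.314 at week 8, -0.195 from week 0 to 20 and 0.194 for week 24 against other weeks, and the share of all calls that were higher from 57% to 25.5% (diet average), 44.1% to 0.913% (week 8), 65.3% to 14.2% (week 20), 62.4% to 77.5% (week 24), 44.5% to 19.2% (week 0 to 20) and 70.1% to 95.4% (week 24 against other weeks). At week 4 the count was 1 with no detection filter, the replicate block or the muscle covariate. At week 8 it was 2 with array weights, and at week 20 3 with no detection filter. With only the 6 arrays of the week the counts at weeks 4, 8 and 20 were 0. The muscle covariate gave 11 from week 0 to 20. The median diet average moved to 0.0955 with median scaling and 0.0536 without week 24, that of week 24 to 0.415 with no background correction and 0.396 in the deposited values, that of week 0 to 24 to -0.208 and -0.233, and week 24 against other weeks to 0.623 with median scaling. Leaving out 1 array gave 18 to 24 calls for the diet average, 0 to 0 at week 2, 0 to 2 at week 4, 1 to 3 at week 8, 2 to 5 at week 20, 18 to 27 at week 24, 11 to 21 and 17 to 21 from week 0 to 20 and 24, 14 to 22 for week 24 against other weeks, 22 to 29 over normal diet weeks and 9 to 17 for the interaction, with medians of 0.148 to 0.183, 0.462 to 0.551, -0.35 to -0.281 and 0.4 to 0.478. The replicate block gave 19 calls for the diet average, 2 at week 8, 4 at week 20 and 26 at week 24; 12 of 33 arrays correlated best with their own number. Of the diet average calls, Timp2 lost 26 and Timp1 19 of 43. The causes of these changes were not tested. Low signal limits Timp1, Col2a1 and Col4a5, each detected on fewer than 10 arrays.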
